A study of Mus musculus with 8 samples.

Results

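The genes described here make the extracellular matrix of the heart or mark the fibroblasts that secrete it. They are 37 genes listed by name, with no cut on their values, though earlier results of these data were known when the list was drawn up: 5 chains of fibrillar collagens, 4 of basement membrane collagens, 4 of microfibrillar and short-chain collagens, 5 adhesive glycoproteins, 4 proteoglycans, 6 elastic fibre genes, 2 crosslinking enzymes, 3 receptors or membrane proteases, and 4 matrix proteases or inhibitors. A gene was measured where the array held a probe set annotated to that gene alone; a probe set is a handful of short probes whose brightness is summarised into 1 level. This was so for 35 of the 37 genes, with 80 probe sets, out of 18194 such genes and 45101 probe sets on the array. No probe set was annotated to Fbn1, and those for Loxl2 were also annotated to another gene, so neither was measured here.

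At E18.5, intact hearts were taken from 5 wild-type and 3 2lox/2lox mouse embryos, and RNA of every heart went on a separate Affymetrix Mouse430 array. The 2lox allele is the floxed allele of Kdm1a (Lsd1, also called Aof2) before any Cre recombination. It still yields Lsd1 protein, which carries point mutations in the tower domain, and every cell of the embryo carries it, so the comparison is between whole animals and not between altered and unaltered fibroblasts. The labels call the same hearts both hypomorphic and knock-out, and the wild-type hearts came from littermates. Kdm1a itself read 9.44, 9.53 and 9.55 in the 2lox/2lox hearts, below every wild-type value (10.36, 10.34, 10.29, 10.32 and 10.26), with a log2 fold change of -0.81 (limma with Benjamini-Hochberg adjustment, adjusted p = 5.15e-04), so the groups lay as the labels give them.

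Fibroblasts of the heart arise largely from the epicardium and from endocardial cushions, and they are found by Pdgfra, Ddr2 and the type I and type III collagens they secrete. Collagen chains are assembled in the cell as triple helices, cut and laid down as fibrils outside it, and tied together by lysyl oxidases. Elastin is laid on microfibrils in the great arteries and valves, laminins and type IV collagen form the sheets under endothelium and around myocytes, and versican and hyaluronan fill the early cushions from which valves and the membranous septum form. In RNA of whole hearts, fewer cells of a type and less RNA per cell cannot be told apart.

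No matrix or fibroblast gene passed the threshold between 2lox/2lox and wild-type hearts. The lowest adjusted p among the 35 genes was 0.438, for Col1a1. Of all probe sets 36, or 0.0798%, had an adjusted p under 0.05, and of all genes taken by their brightest probe set 27, or 0.148%. At an unadjusted p under 0.05, 1 of the 35 genes was higher in the 2lox/2lox hearts and 0 were lower, against 5.82% of all genes higher and 4.41% lower. In none of the 35 genes did the 3 2lox/2lox values lie apart from all 5 wild-type values, whereas 5.97% of all genes had groups that did not overlap.

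The differences were small beside the spread of the wild-type hearts. Of the 35 genes, 22 had a positive and 13 a negative log2 fold change, with a median of 0.08 and a range from -0.17 for Pdgfra to 1.33 for Eln. The median over all genes was -0.00, and over the genes with a mean log2 value of at least 8 it was 0.01. In 32 genes the 2lox/2lox mean lay within the range of the wild-type hearts, and in 24 all 3 2lox/2lox values did. Of all 18194 genes this held for 13265 and 5798. The wild-type spread of the 35 genes was wider, with a median SD of 0.31 against 0.10 over all genes, which makes lying within the range easier. A missed threshold does not show equal levels, so the 95% confidence intervals were read against a fold of 1.4, or 0.49 on the log2 scale. For 20 of the 35 genes the interval lay within this fold in both directions, against 16864 of all 18194 genes. For 12 genes it reached past it upwards and for 5 downwards, among them Eln and Fbln2 in both directions, so a difference of that size was not detectable or excludable in those genes with 8 hearts.

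**Figure D1:**
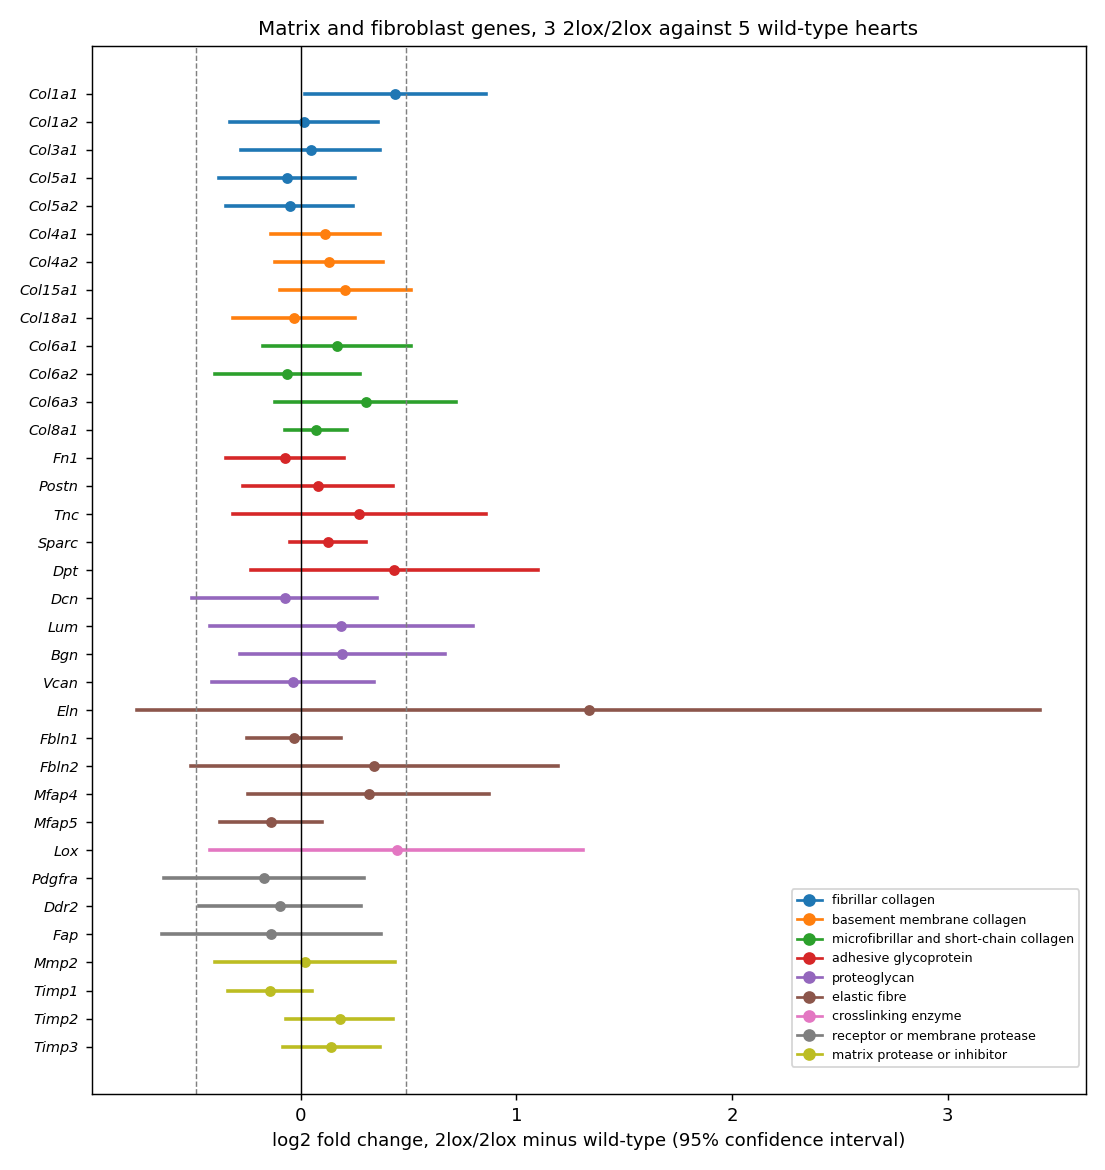
Log2 fold change of each measured gene, 2lox/2lox minus wild-type (point), with its 95% confidence interval (line) from limma; colours give the role of the gene and the dashed lines a fold of 1.4. The interval of Col1a1 alone leaves out 0, and that of Eln is the widest, from -0.76 to 3.43.

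Type I collagen, a heterotrimer of the products of Col1a1 and Col1a2, is the main fibril of the myocardial interstitium. Col1a1 read 11.52, 11.13 and 11.26 in 2lox/2lox hearts 1 to 3 and 11.04, 11.14, 10.81, 10.24 and 11.09 in wild-type hearts 1 to 5. One 2lox/2lox heart lay inside the wild-type range and the other 2 above it, and wild-type heart 4 lay well below the rest. The log2 fold change was 0.44 ± 0.19 (SE), a fold of 1.35 (adjusted p = 0.438, and the unadjusted p was under 0.05). With 1 heart left out it ran from 0.28 (without wild-type heart 4) to 0.52 (without 2lox/2lox heart 2). The dimmer Col1a1 probe set gave 0.12 (adjusted p = 0.842).

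For Col1a2 the bright probe set gave 12.60, 12.30 and 12.75 in the 2lox/2lox hearts and 12.59, 12.77, 12.22, 12.29 and 12.83 in the wild-type hearts, so all 2lox/2lox values lay inside the wild-type range. The log2 fold change was 0.01 ± 0.15 (adjusted p = 0.989), and its sign changed in 4 of the 8 refits that each left out 1 heart. Its second probe set gave 0.10 (adjusted p = 0.897). The dimmest, near background at 3.90, 3.90 and 4.01 against 3.75 to 3.82, gave 0.14 (adjusted p = 0.391) with groups that did not overlap, and the difference between the genes was not tested. Col3a1, the chain of type III collagen, read 13.13, 12.99 and 13.17 against 13.03, 13.52, 12.80, 12.82 and 13.09, with a log2 fold change of 0.05 ± 0.14 (adjusted p = 0.952). Col5a1 and Col5a2, chains of the type V collagen on which fibrils nucleate, had log2 fold changes of -0.06 and -0.05. The adjusted p-values of both were above 0.9, the intervals of these 4 chains lay within the fold of 1.4, and the 2lox/2lox values of each lay inside the wild-type range.

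No basement membrane collagen passed the threshold, and in each of the 4 genes at least 1 2lox/2lox heart lay outside the wild-type range. Col4a2 read 11.14, 11.17 and 10.84 in the 2lox/2lox hearts against 10.96, 11.01, 11.03, 10.61 and 11.01 in the wild-type hearts. Its log2 fold change of 0.13 ± 0.11 (adjusted p = 0.755) became 0.05 without wild-type heart 4 and 0.23 without 2lox/2lox heart 3. In Col4a2 and in its partner chain Col4a1, with 0.11 ± 0.11 (adjusted p = 0.793), the first 2 2lox/2lox hearts lay above the wild-type range and the third inside it. Col15a1, the chain of a collagen at the edge of basement membranes, read 6.42, 6.27 and 5.92 against 6.05, 6.002, 5.97, 5.68 and 6.27. Its log2 fold change was 0.21 ± 0.14 (adjusted p = 0.649). Col18a1, whose product releases endostatin, had a log2 fold change of -0.03 ± 0.13.

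Type IV chains are secreted as trimers of the Col4a1 and Col4a2 products, and their genes lie head to head. In the RefSeq promoter table of GRCm38.p6, Col4a1 starts at base 11312826 of the minus strand of chromosome 8 and Col4a2 at base 11312805 of the plus strand, 22 bases from one start to the other with both included. The first stretch below lies upstream of the Col4a1 start and inside Col4a2, and it is shown because both genes share this region. The others lie upstream of Col1a2 and of a start of Postn, both of which mark fibroblasts. Capitals mark CCAAT (written ATTGG where it lies on the other strand) in the first pair and TATAAA in the last. All run 5′ to 3′ on the strand of the gene, and the stretches are chr8:11312927-11313056 on the minus strand, chr6:4505458-4505557 on the plus strand and chr3:54361007-54361106 on the plus strand.
Col4a1: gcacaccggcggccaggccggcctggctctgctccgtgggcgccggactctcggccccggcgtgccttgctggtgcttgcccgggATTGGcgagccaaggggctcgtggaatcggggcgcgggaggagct
Col1a2: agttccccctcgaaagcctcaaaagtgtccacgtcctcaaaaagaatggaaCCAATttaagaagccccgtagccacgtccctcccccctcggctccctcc
Postn: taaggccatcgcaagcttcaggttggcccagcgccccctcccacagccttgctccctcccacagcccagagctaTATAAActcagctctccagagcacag

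The table held 30 promoter windows for 25 of the 37 listed genes. In the 250 bases before the start, on either strand, CCAAT was found in 7 of these windows and in 33.8% of all 32851 windows, and TATAAA in 5 and in 12.4%. The 7 windows with CCAAT belong to Col18a1, Col1a2, Col4a1, Col4a2, Timp1, Timp2 and Vcan, and those with TATAAA to Col3a1, Ddr2, Postn and Tnc. A match is a description of the letters and says nothing of binding.

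The 2 type IV chains moved together from heart to heart more closely than any other pair of these genes. The log2 difference between Col4a1 and Col4a2 within a heart had an SD of 0.0511 over the 8 hearts, the smallest of all 595 pairs, whose median was 0.312. For Col5a1 and Col5a2 this SD was 0.0725, the third smallest, and for Col5a1 and the collagen receptor Ddr2 0.0690, the second smallest. For Col6a1 and Col6a2 it was 0.163 (rank 56), and for Col1a1 and Col1a2 0.308 (rank 290). The SD is smaller for genes that vary little, but the type IV pair was also first when the SD was divided by the smaller SD of the 2 genes (0.284, against a median of 1.62), and type I ranked 189. These points share their arrays, so this is a description of these 8 hearts.

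**Figure D2:**
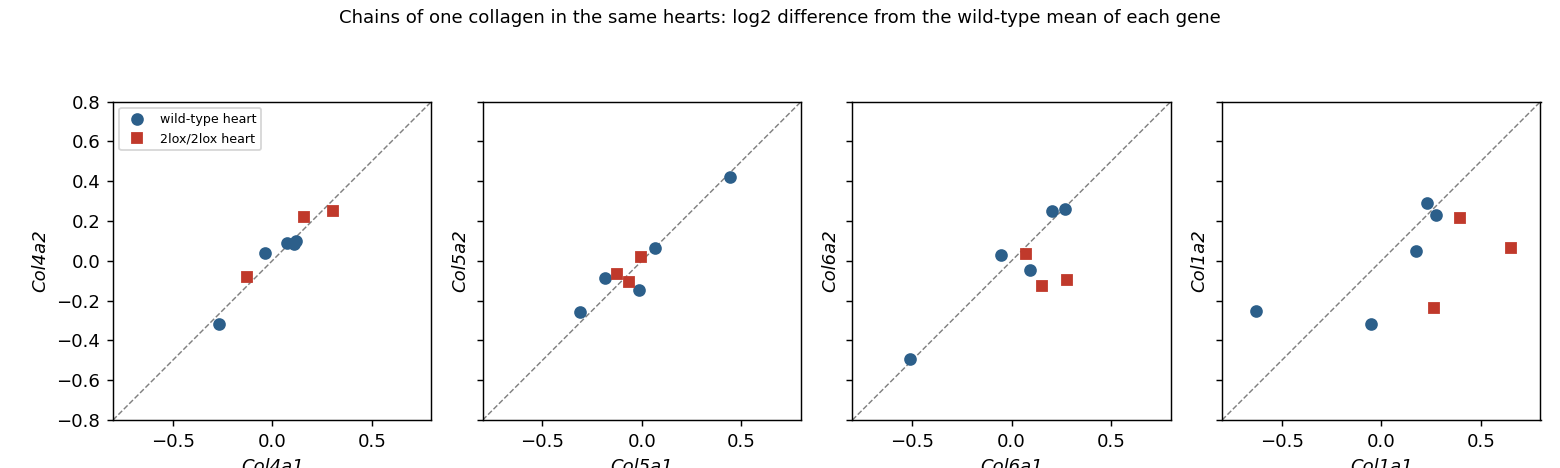
Each panel sets the chains of one collagen against each other in the same 8 hearts, as the log2 difference from the wild-type mean of each gene; circles are wild-type and squares 2lox/2lox hearts, and the dashed line marks equal differences. Col4a1 with Col4a2 and Col5a1 with Col5a2 lie along the line, and in type I collagen the 3 2lox/2lox hearts lie below it.

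The beaded filaments of type VI collagen join fibrils to cells. Col6a3 read 9.01, 8.88 and 9.10 in the 2lox/2lox hearts and 8.81, 9.28, 8.25, 8.48 and 8.66 in the wild-type hearts, with a log2 fold change of 0.30 ± 0.19 (adjusted p = 0.620). All 3 2lox/2lox values lay above 4 of the wild-type values and below that of wild-type heart 2. Col6a1 and Col6a2 went in different directions, with 0.17 ± 0.15 and -0.06 ± 0.15, and Col8a1, a short-chain collagen of vessel walls, had 0.07 ± 0.06.

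Among the adhesive glycoproteins, Fn1 encodes fibronectin, one of the first fibrils around mesenchymal cells. Its bright probe set read 12.12, 12.21 and 12.16 in the 2lox/2lox hearts and 12.28, 12.54, 12.08, 12.36 and 11.91 in the wild-type hearts, with a log2 fold change of -0.07 ± 0.12 (adjusted p = 0.892). The second Fn1 probe set was far dimmer, at 6.11, 6.58 and 6.45 against 6.05, 6.18, 5.55, 6.19 and 5.52. It gave 0.49 (adjusted p = 0.366, with an unadjusted p under 0.05), so the probe sets of this gene differed in sign, and with the mean of both the log2 fold change was 0.21. Neither passed the threshold.

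Postn, the matricellular protein periostin of cushions and valves, read 12.29, 12.46 and 12.12 against 12.30, 12.69, 11.93, 12.02 and 12.11. The log2 fold change was 0.08 ± 0.16 (adjusted p = 0.911). Sparc, which binds collagen and aids its assembly, had 12.77, 12.69 and 12.64 against 12.62, 12.72, 12.60, 12.37 and 12.57, a log2 fold change of 0.13 ± 0.08 (adjusted p = 0.626). Its other probe sets gave 0.21 and 0.14 in the same direction. Dpt, the small collagen-binding protein dermatopontin, read 7.72, 8.004 and 7.92 against 7.38, 7.67, 7.92, 6.38 and 7.90, and its log2 fold change of 0.43 ± 0.30 (adjusted p = 0.665) became 0.17 without wild-type heart 4. Tnc, tenascin C, had 0.27 ± 0.26.

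**Figure D3:**
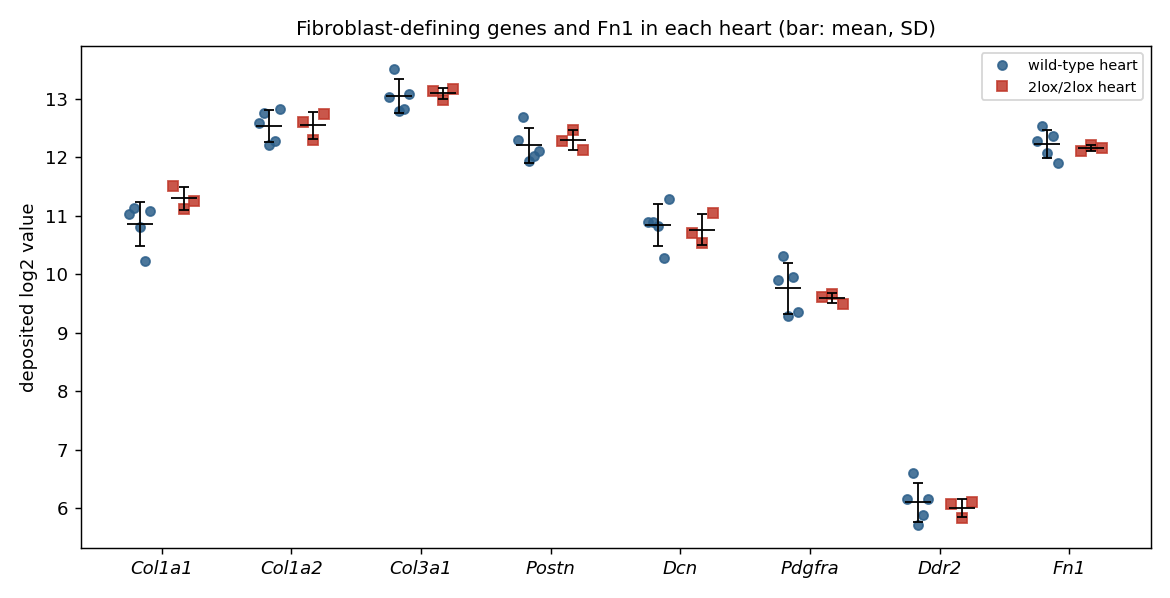
Deposited log2 value of the fibroblast-defining genes and of Fn1 in each heart, with circles for the 5 wild-type and squares for the 3 2lox/2lox hearts; bars give the mean and SD of each group. The groups overlap in every gene shown, and levels of different genes cannot be compared, since each is read by its own probes.

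The receptors and membrane proteases that mark fibroblasts were lower in the mean and overlapped between groups. Pdgfra, the receptor that marks cardiac fibroblasts and their precursors, read 9.62, 9.66 and 9.50 in the 2lox/2lox hearts and 9.91, 10.31, 9.28, 9.96 and 9.35 in the wild-type hearts. The 2lox/2lox values formed a narrow band between the 2 lowest and the 3 highest wild-type values, with a log2 fold change of -0.17 ± 0.21 (adjusted p = 0.836). This rested on which wild-type hearts were kept, as it was -0.03 without wild-type heart 2, -0.29 without wild-type heart 3 and -0.47 without both wild-type hearts 3 and 5 (adjusted p = 0.235), a choice made after the values were seen. Its other probe sets gave -0.41 and -0.05. Ddr2, a receptor for fibrillar collagen, read 6.07, 5.83 and 6.10 against 6.16, 6.59, 5.71, 5.88 and 6.15, with -0.10 ± 0.17 (adjusted p = 0.897). Fap, a surface protease of activated fibroblasts, was the dimmest of all 35 genes, with a mean of 4.86, and had -0.14 ± 0.23.

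Fibroblast markers outside the 37 genes also gave 0 past the threshold, of 21 measured. At an unadjusted p under 0.05 there was 1 lower, or 4.76% against 4.41% of all genes, and 0 higher, a share near the background. That gene was Tcf21, a transcription factor of epicardium-derived fibroblasts. It read 9.28, 8.80 and 9.33 in the 2lox/2lox hearts, each below all wild-type values of 9.59, 9.63, 9.50, 9.70 and 9.55, and its log2 fold change was -0.45 ± 0.11 (limma, adjusted p = 0.228). Gsn, the actin-severing protein gelsolin, had 0.27 ± 0.12 (adjusted p = 0.463). Twist1, Pdgfrb and Thy1 had log2 fold changes of -0.06, -0.02 and 0.09. Of 12 epicardial markers 10 had a negative log2 fold change, with 0 past the threshold and 0 at an unadjusted p under 0.05. Their mean was -0.72 in 2lox/2lox heart 2, where Tcf21 was also lowest, but 0.07 and -0.02 in 2lox/2lox hearts 1 and 3, and it ran from -0.43 (heart 2) to 0.30 over the wild-type hearts. Their part in the Tcf21 values was not tested.

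No proteoglycan or matrix enzyme passed the threshold. Dcn and Lum, small leucine-rich proteoglycans that space collagen fibrils, had log2 fold changes of -0.07 ± 0.19 and 0.19 ± 0.27, their relative Bgn had 0.19 ± 0.21, and Vcan, the versican of the cushions, had -0.04 ± 0.17. The adjusted p-values of these 4 genes were 0.817 or higher, and the interval lay within the fold of 1.4 for Vcan alone. Mmp2, a gelatinase, had 0.02 ± 0.19.

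The inhibitors of the matrix proteases varied little among the 2lox/2lox hearts. Timp1 read 8.12, 8.13 and 8.11 in the 2lox/2lox hearts and 8.37, 8.40, 8.28, 8.26 and 8.001 in the wild-type hearts, so 4 of the 5 wild-type hearts lay above all 2lox/2lox hearts and wild-type heart 5 below them. The log2 fold change was -0.14 ± 0.09 (adjusted p = 0.610). Timp2 had 10.25, 10.20 and 10.16 against 10.14, 10.32, 9.83, 9.81 and 10.02, a log2 fold change of 0.18 ± 0.11 (adjusted p = 0.618). Timp3 had 9.53, 9.52 and 9.41 against 9.47, 9.47, 9.31, 9.03 and 9.46, a log2 fold change of 0.14 ± 0.10 (adjusted p = 0.683). Direction depended on the probe set in the last 2, since their others ran from -0.24 to 0.16 for Timp2 and from -0.45 to 0.20 for Timp3. Of the 25 genes with several probe sets, 14 had all of them in 1 direction and 11 did not. Of the 80 probe sets 4 had an unadjusted p under 0.05, all higher in the 2lox/2lox hearts, and 0 passed the threshold. The unadjusted share over all probe sets was not counted. Over all genes, by their brightest probe set, it was 5.82% higher and 4.41% lower.

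The elastic fibre genes, save Fbln1 and Mfap5, spread widely among the wild-type hearts. Eln, the gene of elastin itself, read 11.35, 10.28 and 11.46 in the 2lox/2lox hearts and 11.15, 11.73, 7.07, 10.37 and 8.16 in the wild-type hearts. Wild-type hearts 3 and 5 lay below all others, and the remaining 3 overlapped the 2lox/2lox hearts. The wild-type SD of 2.00 was the fifth largest of the 18194 genes. The log2 fold change was 1.33 ± 0.94 (adjusted p = 0.675). With 1 heart left out it ran from 0.68 (without wild-type heart 3) to 1.84 (without wild-type heart 2). It was -0.05 when wild-type hearts 3 and 5 were both left out, a choice made after their values were seen. The dimmer probe set gave the same order of hearts at the low end, with 7.35 in wild-type heart 3 and 7.52 in wild-type heart 5 against 8.66 to 10.02 in the others.

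Lox, the lysyl oxidase that crosslinks elastin and collagen, read 9.39, 8.90 and 9.63 in the 2lox/2lox hearts and 9.39, 9.75, 7.73, 8.997 and 8.45 in the wild-type hearts. Fbln2, a fibulin that binds elastic fibres, read 9.85, 9.54 and 9.75 against 9.87, 10.22, 8.44, 9.78 and 8.55. Mfap4, a microfibril-associated protein, read 9.07, 8.97 and 9.32 against 9.13, 9.52, 8.25, 8.72 and 8.40. In each of these genes the lowest values were again those of wild-type hearts 3 and 5, and the log2 fold changes were 0.44 ± 0.39, 0.34 ± 0.38 and 0.31 ± 0.25 (adjusted p = 0.758, 0.819 and 0.725). Mfap5, of the microfibrils proper, did not share the pattern, with 6.44, 6.43 and 6.72 against 6.92, 6.74, 6.60, 6.48 and 6.59. Its log2 fold change was -0.14 ± 0.11 (adjusted p = 0.711). Fbln1 had -0.03 ± 0.10.

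Wild-type hearts 3 and 5 were the 2 lowest of all 8 hearts in 12 of the 35 genes, or 34.3%, against 788 of all 18194 genes, or 4.33%. This pair of hearts was picked after the values of these genes were seen. The choice itself favours a high share, so the counts describe these hearts only. The 12 were Col5a2, Fn1, Tnc, Lum, Bgn, Vcan, Eln, Fbln1, Fbln2, Mfap4, Lox and Pdgfra, genes of cushions, valves and elastic vessels as well as of interstitial fibroblasts. This was not so for Col1a1, Dcn, Col6a2, Dpt or the type IV chains, where wild-type heart 4 was lowest. Outside the matrix, 5 of 11 skeletal muscle markers (45.5%) and 7 of 21 other fibroblast markers (33.3%) had the same lowest hearts. The labels give nothing that sets wild-type hearts 3 and 5 apart from their group, and do not say how much of the great vessels was taken with each heart.

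**Figure D4:**
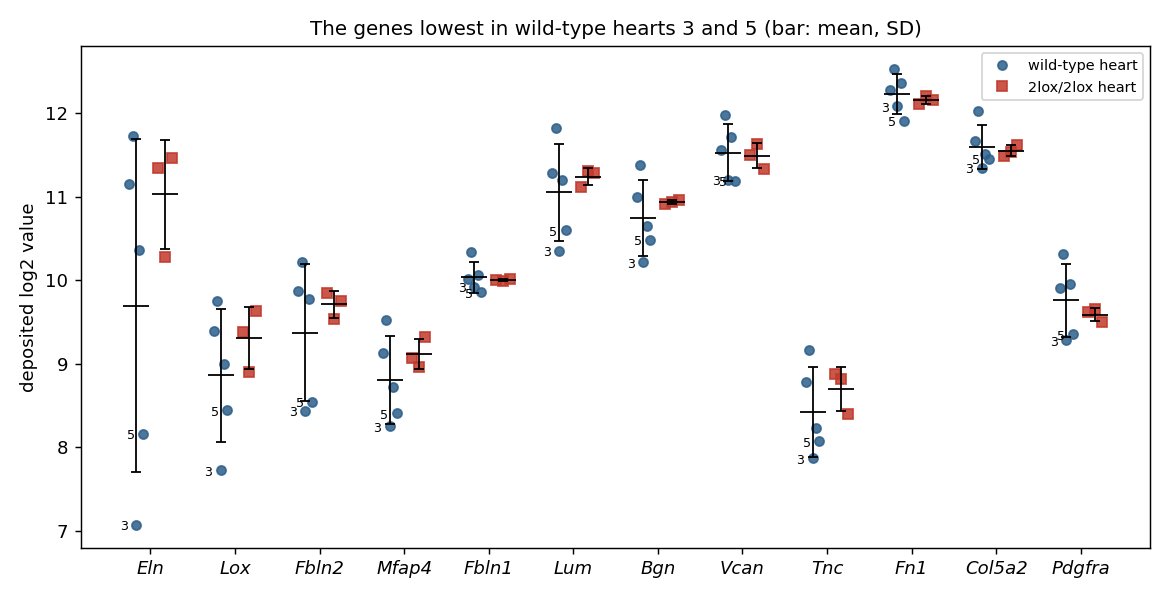
Deposited log2 values of the 12 genes in which wild-type hearts 3 and 5 (numbered) were the lowest of all 8 hearts; circles are wild-type and squares 2lox/2lox hearts, and bars give the mean and SD of each group. In Eln these hearts read 7.07 and 8.16, and all others lay between 10.28 and 11.73.

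Cartilage and valve markers moved with these genes. In wild-type hearts 3 and 5 the mean of the 11 measured markers lay at -0.42 and -0.50 from the wild-type mean on the log2 scale, against 0.22 to 0.45 in the other wild-type hearts and 0.14, 0.10 and 0.02 in 2lox/2lox hearts 1 to 3. In 7 of the 11 markers, namely Sox9, Acan, Col2a1, Col9a1, Hapln1, Scx and Cthrc1, these were the lowest hearts of all. Sox9, the transcription factor of chondrocytes and valve mesenchyme, read 6.04 and 6.19 there and 6.93 to 7.41 in the others. Smooth muscle markers were lowest in wild-type heart 3, with a mean of -0.23 against -0.05 to 0.17 in the other wild-type hearts. The mean of the cardiomyocyte markers kept within -0.09 to 0.09 in all 8 hearts. With the mean of the cartilage and valve markers as a covariate, chosen after the data were seen, the log2 fold change of Eln was 0.95 (adjusted p = 0.399) and that of Pdgfra -0.26 (adjusted p = 0.237), both with an unadjusted p under 0.05. Beyond this covariate, their part in the values of these genes was not tested.

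The wild-type spread of the 35 genes was wide. Their median wild-type SD was 0.31, against 0.10 over all genes and 0.0974 over the genes with a mean of at least 8. It was 0.18 over the 213 measured genes of the other matrix and fibroblast lists. Over the marker lists it ran from 0.10 for lung and liver markers to 0.57 for cartilage and valve markers, so a wide spread was not particular to matrix genes. Eln, Lox, Fbln2, Dpt and Lum were among the 100 genes with the largest wild-type SD, and 17 of the 35 were among the first 500. Wild-type heart 2 was the highest of all 8 hearts in 22 genes, wild-type heart 3 the lowest in 17 and wild-type heart 4 the lowest in 11. The labels give no sex, and Xist, the transcript of the inactive X, read 10.59 in wild-type heart 2 and 10.88 in 2lox/2lox heart 3 but 4.61 to 4.94 in the other hearts, so the heart with the highest matrix values was also the only wild-type heart with high Xist. Averaged over the 35 genes, the difference from the wild-type mean was 0.15, 0.40, -0.31, -0.15 and -0.09 in wild-type hearts 1 to 5. It was 0.16, 0.07 and 0.15 in 2lox/2lox hearts 1 to 3, which thus lay inside the wild-type range and closer to each other.

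**Figure D5:**
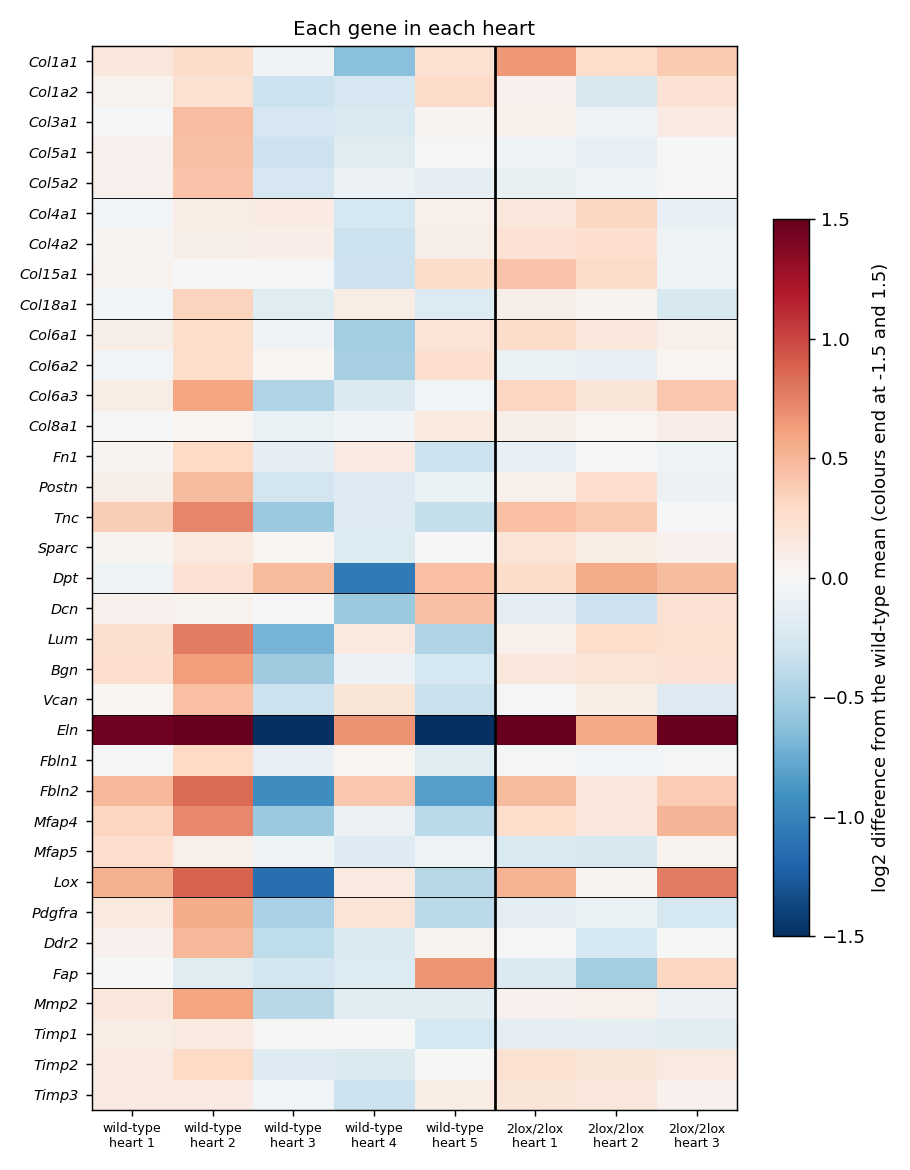
Log2 difference of each gene in each heart from the wild-type mean of that gene, with red above and blue below it; genes are ordered by role, and the thick line separates the 5 wild-type from the 3 2lox/2lox hearts. Wild-type heart 2 is mostly red, wild-type hearts 3 and 4 mostly blue, and Eln exceeds the colour range, which ends at -1.5 and 1.5.

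Markers of other cells differed between the genotypes beside these values, and RNA quality differed in part of the hearts. All 13 measured macrophage markers had a positive log2 fold change, 2 of them past the threshold, against 27 of all 18194 genes (0.148%). These were Lgals3, the lectin galectin-3, with 0.88 (adjusted p = 0.0240), and Cybb, of the phagocyte oxidase, with 0.83 (adjusted p = 0.0346). At an unadjusted p under 0.05, 69.2% of the list were higher, against 5.82% of all genes. The groups did not overlap in 46.2%, against 5.97%. The mean of the list was 0.35, 0.46 and 0.57 in 2lox/2lox hearts 1 to 3, and wild-type hearts ranged from -0.19 to 0.20. Skeletal muscle markers were mixed in direction, as 8 of the 11 measured had a positive and 3 a negative log2 fold change. These ran from -0.42 to 1.32, with a median of 0.16. The highest, Tnni2, a fast troponin I, was the only 1 past the threshold (adjusted p = 0.0240). Of this list 36.4% were higher at an unadjusted p under 0.05 and 0 lower, against 5.82% and 4.41% of all genes. Its means, with Tnni2 included, were 0.28 to 0.38 against -0.19 to 0.25. The 3′ signal of the control transcripts Actb and Gapdh exceeds their 5′ signal more as RNA is degraded, and this log2 difference was 0.52, 0.50 and 0.33 in 2lox/2lox hearts 1 to 3 but 0.32 to 0.38 over the wild-type hearts. With it as a covariate in limma, Col1a1 had a log2 fold change of 0.34, Eln 2.19, Col15a1 -0.052 and Col4a2 -0.083 (adjusted p = 0.9999 for each). No matrix gene passed the threshold in that refit. The part of the macrophage and skeletal muscle markers in the values of the matrix genes was not tested.

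Genes around the 37, in 10 lists of matrix and fibroblast function, were read from the same fit. Of 226 listed genes 213 were measured and 0 passed the threshold, and at an unadjusted p under 0.05 there were 8 higher and 8 lower (3.76% each, against 5.82% and 4.41% of all genes), with a median log2 fold change of 0.02. In 7 genes, or 3.29% against 5.97% of all genes, the groups did not overlap, so the pooled shares were not above the background. Single lists differed. Of 18 laminins and other basement membrane genes 3 were lower (16.7%) and 1 higher, with 11.1% not overlapping. Of 28 other matrix proteases and inhibitors 3 were lower (10.7%) and 1 higher, with 10.7% not overlapping. Of 17 other crosslinking and elastic fibre genes 3 were higher (17.6%) and 0 lower, with 5.88% not overlapping. Of 18 matrix receptors 2 were higher (11.1%) and 1 lower. Other collagens, other proteoglycans and matricellular genes had 0. The genes below are named for having the smallest p-values of their lists. Frem1 and Npnt, basement membrane proteins that bind or anchor epithelia, had lower values in all 3 2lox/2lox hearts than in any wild-type heart, with log2 fold changes of -0.29 and -0.38 (adjusted p = 0.234 and 0.253). Adam12, a membrane-bound metalloprotease, and Plat, tissue plasminogen activator, also lay below, with -0.29 and -0.23 (adjusted p = 0.221 and 0.325). Tgm2, a transglutaminase that crosslinks matrix proteins, lay above, with 0.28 (adjusted p = 0.281).

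The receptors through which cells hold the matrix had values in both directions. Itga5, the integrin chain that binds fibronectin, had a log2 fold change of 0.48 and Itga6, which binds laminin, -0.26 (adjusted p = 0.292 and 0.327). Of the TGF-beta and PDGF genes, which drive fibroblasts to make collagen, Tgfb1 read 7.64, 7.75 and 7.21 in the 2lox/2lox hearts and 7.37, 7.43, 7.22, 6.94 and 6.98 in the wild-type hearts, a log2 fold change of 0.35 (adjusted p = 0.423), and Smad3 had 0.11 (adjusted p = 0.675). Ltbp2, which binds microfibrils, had 0.41 (adjusted p = 0.422). Of the other collagens the smallest p-values were those of Col12a1, a fibril-associated collagen, and Col10a1, of growth plate cartilage, with -0.24 and -0.14 (adjusted p = 0.533 and 0.537). Of the matricellular genes they were those of Ccn4 and Smoc1, with -0.18 and 0.12 (adjusted p = 0.611 and 0.676), and of the other proteoglycans those of the syndecans Sdc4 and Sdc3, with -0.79 and 0.27 (adjusted p = 0.469 and 0.495). Collagen processing enzymes, 20 measured, had 0 at an unadjusted p under 0.05 in either direction and log2 fold changes from -0.11 to 0.12. The lowest p-values there belonged to Pcolce2, an enhancer of procollagen cleavage, with -0.09, and Crtap, of the prolyl hydroxylation complex, with 0.12 (adjusted p = 0.700 and 0.743).

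Markers of smooth muscle and myofibroblasts, cells that also make elastin and collagen, had 0 of 13 past the threshold. At an unadjusted p under 0.05, 4 were higher (30.8%, against 5.82% of all genes) and 0 lower, and in 4 the groups did not overlap (30.8% against 5.97%). Cnn1, the smooth muscle calponin, read 10.99, 11.03 and 11.09 in the 2lox/2lox hearts, above the wild-type values of 10.84, 10.73, 10.66, 10.88 and 10.73, with a log2 fold change of 0.27 (adjusted p = 0.220). Myocd, a coactivator of smooth and cardiac muscle genes, also lay above, with 0.63 (adjusted p = 0.262).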

How the data were processed

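The authors isolated RNA from E18.5 hearts and hybridized it to Affymetrix Mouse430 arrays. The authors deposited a log2 value for each of 45101 probe sets, normalized by a method not given in the sources used here. Since array medians ran only from 5.03 to 5.10, the values were used unscaled. Low values depend most on the authors' background treatment. Arrays have no read depth, and their number limits the precision. Groups came from the labels, and p-values measure the spread between these hearts.

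The contrast 2lox/2lox minus wild-type was fitted to the whole table with limma 3.58.1 under R 4.3.3 (lmFit, eBayes). Two-sided p-values were adjusted by Benjamini-Hochberg over every probe set, with 0.05 as threshold. The platform annotation, brought up to date through RefSeq, named 1 gene for 34958 probe sets, several for 932 and none for 9211. A gene was represented by its brightest probe set annotated to it alone, and the others served as a check.

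The 37 genes and the other lists were chosen with earlier results of these data known. Full statistics are given for the 12 genes with the smallest p, for Fn1, Col1a1, Col1a2, Col3a1, Postn, Pdgfra and Ddr2, and for any gene whose probe sets differed in sign at an unadjusted p under 0.05. From each other list come the 2 genes with the smallest p and those past the threshold, and genes named besides were chosen after their values were seen. The scripts were tested on simulated data. The closing section names the alternatives with their effect. The cartilage and valve covariate and the omission of wild-type hearts 3 and 5 were added after the data were seen.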

Additional observations from a re-analysis of the deposited data

Results flagged for a closer look

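In Col4a2 the value of wild-type heart 4, 10.61, lay apart from the other 4 wild-type hearts, which read 10.96 to 11.03. Its gap to the nearest was 0.854 of the range of the group, above the critical value of 0.71 in Dixon's test for 5 samples. This was 1 of 35 genes tested, and chance alone gives about 1 such case in 20 groups. Without this heart the log2 fold change of Col4a2 was 0.05 in place of 0.13. Col4a1 was lowest in the same heart, at 11.80. Wild-type heart 4 was also the lowest of all hearts in Col1a1, Col6a1 and Dpt, and its erythroid markers were the highest, with a mean of 0.77 on the log2 scale against -0.46 to 0.24 in the other hearts. Their part in the Col4a2 value was not tested.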

How the results depend on the processing

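No alternative brought a matrix or fibroblast gene past the threshold, over 20 refits (trend or robust moderation, quantile normalization, a filter on dim probe sets and those below) and a further fold of 1.4, and the lowest adjusted p was 0.235, for Pdgfra without wild-type hearts 3 and 5. All probe sets past the threshold, 36 as reported, were 0 with the replicate block, 9 with the 3′ minus 5′ covariate and 17 to 797 with 1 heart left out (797 without 2lox/2lox heart 3). The block has a term for each replicate number. No 2lox/2lox heart shares the numbers of wild-type hearts 4 and 5, so these hearts are fitted exactly and do not inform the contrast. That refit therefore has less power. Genes at an unadjusted p under 0.05, 1 as reported, were 0 with median centring, array weights, the 3′ minus 5′ covariate, the sex score or averaged probe sets. They were 2 with the replicate block (Col1a1, Timp1), 4 with the cartilage and valve covariate (Col1a1, Eln, Pdgfra, Timp1), 4 without wild-type hearts 3 and 5 (Fn1, Dpt, Pdgfra, Timp1), and 0 to 5 with 1 heart left out (5 without wild-type heart 2). The share of all genes at this level was not counted in the refits. These counts therefore have no background beside them and are not results about the genes named. The median log2 fold change lay between 0.01 and 0.16 with 1 heart left out and between -0.03 and 0.10 otherwise.

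Signs of values not past the threshold turned in 26 of 360 cases. Some of these could not turn. Trend or robust moderation and the filter on dim probe sets leave the log2 fold change itself as it is. Averaging does so for genes with 1 probe set. Col1a2 was -0.010 with array weights and -0.030 with the sex score, and Col3a1 -0.0086 with the latter. With the replicate block Col3a1 was -0.019 and Postn -0.017. With the 3′ minus 5′ covariate Col15a1 was -0.052, Col4a2 -0.083, Postn -0.017, Mfap5 0.022 and Ddr2 0.017. With averaged probe sets Timp2 was -0.013, Timp3 -0.035 and Fn1 0.21. Without wild-type hearts 3 and 5 Eln was -0.053, Mfap4 -0.0042, Col3a1 -0.025 and Postn -0.046. With 1 heart left out Col1a2 ran from -0.088 to 0.14, Col3a1 from -0.016 to 0.16, Postn from -0.0066 to 0.20, Fn1 from -0.15 to 0.0021 and Ddr2 from -0.19 to 0.027. The cause was not tested. Hearts with the same replicate number did not deviate together from their group means (correlations of 0.010, -0.076 and -0.049 over all probe sets). Hearts of different numbers gave -0.12 to 0.13. With so few hearts this cannot show whether the numbers pair them, by litter or by run. The filter on dim probe sets left 34 of the 35 genes. The lower quartile over all arrays was 4.21, and signal close to that level cannot be told from background, which limits Fap and the dim probe sets most.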

Other observations

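Fbln5, a fibulin needed to lay elastin on microfibrils, had the same order of wild-type hearts as Eln and read 10.79, 11.54, 6.61, 10.56 and 8.18 in wild-type hearts 1 to 5 and 10.56, 9.91 and 11.08 in the 2lox/2lox hearts. Its wild-type SD of 2.07 was the third largest of all genes, and its log2 fold change was 0.98 (limma adjusted p = 0.788). Of 17 other measured crosslinking and elastic fibre genes, 8 had their lowest values of all hearts in wild-type hearts 3 and 5, namely Loxl1, Fbn2, Fbln5, Mfap2, Emilin1, Emilin2, Ltbp1 and Ltbp3, against 4.33% of all genes. So did 7 of 20 collagen processing enzymes, among them Serpinh1, the collagen chaperone Hsp47, and P4hb, a subunit of prolyl 4-hydroxylase. Of 18 laminins and other basement membrane genes this held for 1, Nid2, of 12 endothelial and 13 macrophage markers for 0, of 21 other fibroblast markers for 7 and of 11 skeletal muscle markers for 5. It also held for 3 of 13 smooth muscle and myofibroblast markers (23.1%) and for 2 of 13 cardiomyocyte markers (15.4%), Myh6 and Myl7. These genes were named, and this pair of hearts was picked, after the values were seen.

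Sdc4, a heparan sulphate proteoglycan of the cell surface, read 5.99 in 2lox/2lox heart 2 and 7.83 to 8.17 in all other hearts, and its log2 fold change was -0.79 (limma, adjusted p = 0.469). In the same heart the epicardial marker Bnc1 read 5.22, against 6.15 to 8.07 in the others, and the epicardial markers had their lowest mean, -0.72.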
